A study of Mus musculus with 12 samples.

Results

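Bmi1-Oct4 induced pluripotent stem (iPS) lines were compared with hedgehog-agonist-Oct4 iPS lines, all of them made from mouse embryonic fibroblasts. The arrays were taken by their titles, and 7 of the 12 arrays of the series entered the comparison. The Bmi1-Oct4 group held 2 lines, made with a combination of Bmi1 and Oct4 (Pou5f1). The hedgehog-agonist group held 5 lines, in which neural stem cell-like cells obtained with an agonist of the hedgehog pathway were then transduced with Oct4. The agonist was the protein Shh in 1 line, oxysterol in 2 and purmorphamine in 2. Exogenous Oct4 was used for both groups, so its use alone did not separate them. Whether its dose was alike is not known, and no line made with Oct4 alone was among the 7. Doses and the time in culture are not given in the labels. Each line was hybridised once, the numbers in the titles name separate lines of a group, and p-values measure only the spread between these samples. The other 5 arrays, of embryonic stem (ES) cells, the starting fibroblasts (MEF), Bmi1 spheres and 2 oxysterol-Oct4 lines from adult tail-tip fibroblasts, are given only as values beside a result.

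Bmi1 is a subunit of Polycomb repressive complex 1 (PRC1), which ubiquitinates histone H2A and is best known for silencing Cdkn2a, the locus of the cell cycle inhibitors Ink4a and Arf. Shh binds the receptor Patched and so frees Smoothened, which purmorphamine and certain oxysterols activate directly; Gli transcription factors then switch on targets that include Gli1 and Ptch1. Oct4 is a core transcription factor of the pluripotent state.

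No gene differed between the groups after adjustment. Levels are log2 processed signals relative to the array's own 75th percentile, so a level of 0 is the signal of that percentile, and differences are Bmi1-Oct4 minus hedgehog-agonist-Oct4. Of 20183 genes tested with limma, 0 were higher and 0 were lower in the Bmi1-Oct4 lines at an adjusted p under 0.05 (0% called each way), and the smallest adjusted p was 0.0926. At an unadjusted p under 0.05, 354 genes were higher (1.75%) and 365 lower (1.81%), together 719 (3.56%). The Bmi1-Oct4 lines lay above all 5 hedgehog-agonist lines in 784 genes (3.88%) and below all of them in 739 genes (3.66%). The median difference over all genes was -0.01, and the median 95% interval reached 1.24 log2 units, or 2.37-fold, to either side of a gene's estimate. These intervals are for each gene alone, without adjustment, so smaller differences than that were mostly not detectable even before adjustment. Larger differences also failed to pass the adjusted threshold. Among genes described below, Rapgefl1 differed by -3.06 (limma, adjusted p = 0.253) and Unc93a by 3.099 (limma, adjusted p = 0.706). The count of 0 genes therefore does not show that the groups were alike beyond 2.37-fold. The smallest p belonged to Sel1l3, named here after its values were seen, which was -8.58 and -9.09 in the Bmi1-Oct4 lines, against -4.40 to -3.01 in the hedgehog-agonist lines. Its probe was well above background in neither Bmi1-Oct4 line and in 4 of 5 hedgehog-agonist lines. With the hedgehog-agonist readings taken as they stand, the gene was at least 11.1-fold lower in the Bmi1-Oct4 lines (limma, adjusted p = 0.0926). The hedgehog-agonist line not well above background may lie below its reading, so this bound is not strict. It also holds only for the background subtraction used here. With another background correction (normexp), the smallest limma adjusted p of any gene was 0.648.

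Lines made with the same agents differed from each other in more genes than the group means did. The Bmi1-Oct4 lines were at least 2-fold apart from each other in 5403 genes (26.8%), the oxysterol-Oct4 lines in 7786 (38.7%) and the purmorphamine-Oct4 lines in 6143 (30.5%). The mean of the Bmi1-Oct4 lines was at least 2-fold from the mean of the hedgehog-agonist lines in 2925 genes (14.5%); means over several lines vary less than single lines do. Across genes, Pearson's r was 0.903 between the Bmi1-Oct4 lines. With the hedgehog-agonist lines it was 0.867 to 0.911 for Bmi1-Oct4 line 1 and 0.870 to 0.926 for line 2, so the Bmi1-Oct4 lines were no closer to each other than to some lines of the other group. Against MEF, r was 0.791 for Bmi1-Oct4 line 1 and 0.742 for line 2, against 0.807 for purmorphamine-Oct4 line 2 and 0.738 to 0.751 for the other hedgehog-agonist lines. These coefficients describe 20183 genes on shared probes, which are not independent replicates.

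The share of gene spots well above background was 78.4% and 76.7% on the Bmi1-Oct4 arrays, against 58.4% to 70.3% on the hedgehog-agonist arrays. The lowest signal measured well above background lay at -7.27 and -6.88 on the Bmi1-Oct4 arrays, against -5.83 to -4.20 on the hedgehog-agonist arrays, so dim genes were measured further down in the Bmi1-Oct4 lines. Both Bmi1-Oct4 lines were on slide 1, with ES and MEF, while the hedgehog-agonist lines were on slides 2 and 3. Slide and group therefore cannot be told apart among these 7 arrays, and this holds for every value below. Markers of ES or iPS cells were well above background for 8 of 8 genes in both Bmi1-Oct4 lines and for every one measured in the hedgehog-agonist lines (1 had no value in purmorphamine-Oct4 line 1), with a summed linear level of 117 to 136 against 113 to 170 (0.983 in MEF).

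The agents themselves were examined first. The array holds a pair of Bmi1 probes. One lies in the coding sequence, at chr2:18748838-18748897 (mm7, plus strand), and can read RNA of the introduced Bmi1 as well as of the endogenous gene. The single Pou5f1 probe, at chr17:33612047-33612107 (mm7, plus strand), also lies in coding sequence and has the same limit. Both are shown because they are the probes that could see the transduced factors:
Bmi1 coding probe: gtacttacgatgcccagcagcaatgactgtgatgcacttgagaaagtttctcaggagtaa
Pou5f1 coding probe: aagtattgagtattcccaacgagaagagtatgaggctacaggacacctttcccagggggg

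On the Bmi1 coding probe the level was -5.44 and -3.54 in the Bmi1-Oct4 lines, against -4.62 in the Shh-Oct4 line, -6.46 and -4.02 in the oxysterol-Oct4 lines and -5.05 and -4.85 in the purmorphamine-Oct4 lines. It was well above background in 2 of 2 Bmi1-Oct4 lines and in 1 of 5 hedgehog-agonist lines, but the groups overlapped and the difference was 0.51 ± 0.75 (SE; limma over all probes, adjusted p = 1; 95% interval -1.25 to 2.27). The same probe read -1.27 in Bmi1 spheres, labelled as neural stem cell-like cells transduced with Bmi1, and -6.26 in MEF. The other Bmi1 probe, at chr2:18751519-18751578, lies outside the coding sequence and reads endogenous RNA only if the introduced copy held the coding sequence alone. On it the Bmi1-Oct4 lines stood at -2.78 and -1.92, against -3.19 to -1.64 in the hedgehog-agonist lines, a difference of 0.03 with a 95% interval of -1.13 to 1.19. MEF stood at 0.37 and Bmi1 spheres at -0.23 on this other probe. MEF was thus above all 7 lines on it but not on the coding probe, and the probes did not read MEF alike. Neither probe set the Bmi1-Oct4 lines apart from the hedgehog-agonist lines.

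**Figure D1:**
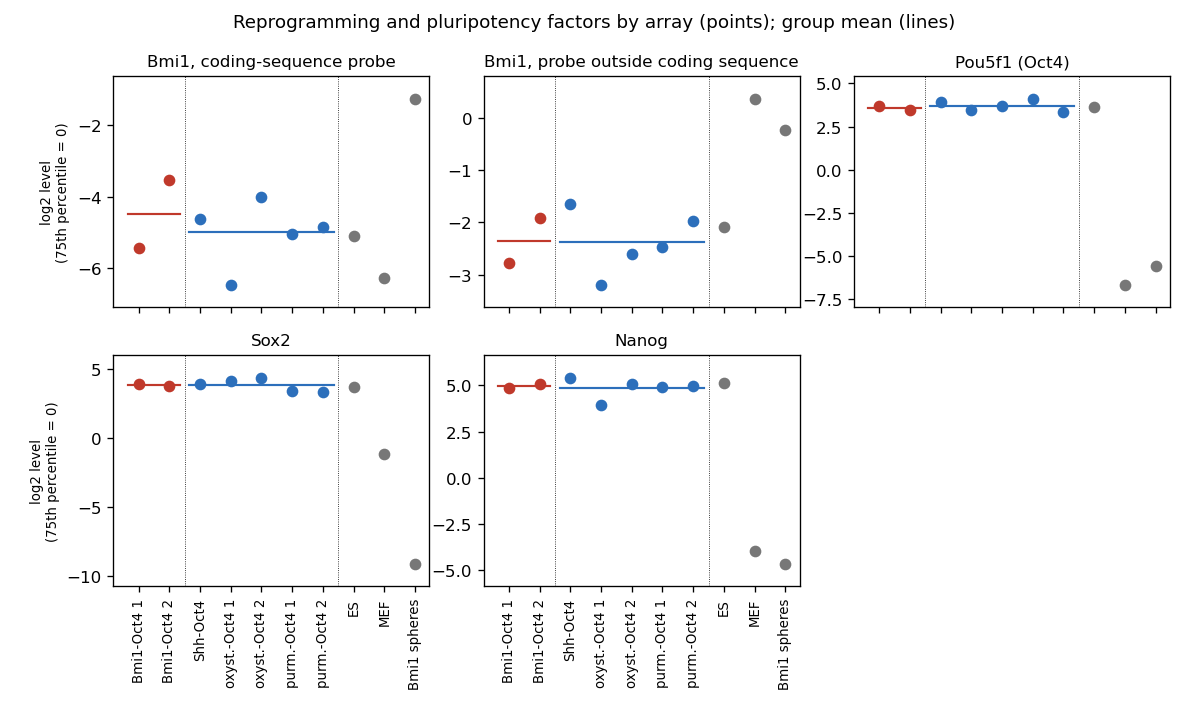
Log2 level of 5 probes (vertical axes) on 10 arrays (horizontal axis): the Bmi1-Oct4 lines in red, the hedgehog-agonist-Oct4 lines in blue, and ES, MEF and Bmi1 spheres in grey; lines mark group means. The red and blue points overlap on each probe, and the coding probe of Bmi1 is highest in Bmi1 spheres, at -1.27.

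Pou5f1, Sox2 and Nanog were high in all 7 lines, as in ES and unlike in MEF. Pou5f1 was 3.68 and 3.49 in the Bmi1-Oct4 lines, against 3.36 to 4.12 in the hedgehog-agonist lines, with 3.62 in ES and -6.66 in MEF. Sox2, its partner on DNA, was 3.91 and 3.76 in the Bmi1-Oct4 lines, against 3.32 to 4.36, with 3.71 in ES. Nanog was 4.88 and 5.08, against 3.94 to 5.42, with 5.14 in ES and oxysterol-Oct4 line 1 lowest, on a probe that was saturated in 1 Bmi1-Oct4 and 3 hedgehog-agonist lines. The differences were -0.13, 0.02 and 0.12, with 95% intervals that lay within 1.2 log2 units of 0. Over the 33 core and naive pluripotency genes tested, 18 were higher in the Bmi1-Oct4 lines, the median difference was 0.03 and 0 members had groups that did not overlap, where 7.55% of all genes did.

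The 15 genes of smallest unadjusted p in each direction were taken from those at least 2-fold apart with groups that did not overlap; none passed the adjusted threshold, and the values that follow are descriptions. Rapgefl1, which resembles Rap guanine nucleotide exchange factors, had the smallest p among them. It was -3.92 and -3.81 in the Bmi1-Oct4 lines, against -1.27 in the Shh-Oct4 line, -0.46 and -1.04 in the oxysterol-Oct4 lines and -0.50 and -0.76 in the purmorphamine-Oct4 lines. The difference was -3.06 ± 0.35 (SE; limma, adjusted p = 0.253), and the Bmi1-Oct4 lines differed from each other by far less than from any hedgehog-agonist line. ES and MEF, which were on the slide of the Bmi1-Oct4 lines, had -2.33 and -2.59, while the tail-tip lines had -0.52 and -0.65.

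Crym, a thyroid hormone-binding protein, was -2.59 and -2.17 in the Bmi1-Oct4 lines, against -0.58 to 0.66 in the hedgehog-agonist lines (difference -2.58 ± 0.41 SE, adjusted p = 0.809), and stood at -0.76 in ES, -2.65 in MEF and -8.04 in Bmi1 spheres. Usp30, a mitochondrial deubiquitinase, differed by -2.60, but its other probe gave -0.32. Mme (the surface peptidase neprilysin), Megf11 and Phactr1 likewise had groups apart on one probe only: their other probes overlapped and gave -0.85, 1.18 and 0.73. Pth1r, the parathyroid hormone receptor, was lower on both of its probes, by -2.02 and -1.97. Mtcp1 (-3.21), Tnr (tenascin-R, -1.66), Galnt16 (-2.59), Thsd4 (-3.88), Zfp69 (-2.01) and Car8 (-2.61) were also among them, as was Igf2. Thsd4 was well above background in only 1 of the 2 Bmi1-Oct4 lines. These genes were dim in the Bmi1-Oct4 lines, except Igf2, and with normexp background correction their differences were smaller. They were -2.08 for Mtcp1, -1.22 for Tnr, -1.72 for Galnt16, -2.11 for Thsd4, -1.41 for Zfp69 and -1.71 for Car8.

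On the higher side, Unc93a, a multi-pass membrane protein, was -0.63 and -0.33 in the Bmi1-Oct4 lines, against -4.04 in the Shh-Oct4 line, -2.63 and -3.82 in the oxysterol-Oct4 lines and -4.01 and -3.43 in the purmorphamine-Oct4 lines. The difference was 3.099 ± 0.46 (SE; limma, adjusted p = 0.706). The tail-tip lines, which were made with oxysterol, stood at -0.61 and -0.79, at the level of the Bmi1-Oct4 lines. Pacsin3, an endocytic adaptor, was 2.47 and 2.91 in the Bmi1-Oct4 lines, against 0.34 to 1.00 (difference 1.92 ± 0.33 SE, adjusted p = 0.917), with 2.78 in ES and 2.46 in MEF. Hnmt, the enzyme that methylates histamine, was not well above background in any hedgehog-agonist line and was at least 4.49-fold higher in the Bmi1-Oct4 lines. Fcmr, an Fc receptor for immunoglobulin M, was likewise at least 2.43-fold higher. Both bounds hold only for the background subtraction used here. With normexp background correction, the differences of Hnmt and Fcmr kept their direction but were smaller than these bounds. Such a bound sets the mean of the measured group against, on each dim array, the higher of the array's lowest measurable signal and the probe's own signal.

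The other genes on this side were Omp (olfactory marker protein, 2.05), Pla2g2e (a secreted phospholipase A2, 2.94), Ggn (gametogenetin, 1.94), Adam6b (1.51), Nudt17 (1.63), Dhrs4 (2.75), Oasl1 (3.78), Pip (3.09), Klc1 (kinesin light chain, 1.40), Skor1 (a transcriptional corepressor, 5.01) and Olfr1491 (3.08). Skor1 was well above background in 1 of 5 hedgehog-agonist lines, purmorphamine-Oct4 line 1, where it was -2.99, near the -1.78 of Bmi1-Oct4 line 1. Pip, a secreted protein, was well above background in 2 of 5. With such dim signals the differences depend on the background correction: with normexp they were 2.88 for Skor1 and 1.52 for Pip. Olfr1491 was 0.53 in Bmi1-Oct4 line 2 and -2.56 in line 1, so line 2 carried most of its difference from the -4.64 to -3.86 of the hedgehog-agonist lines.

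**Figure D2:**
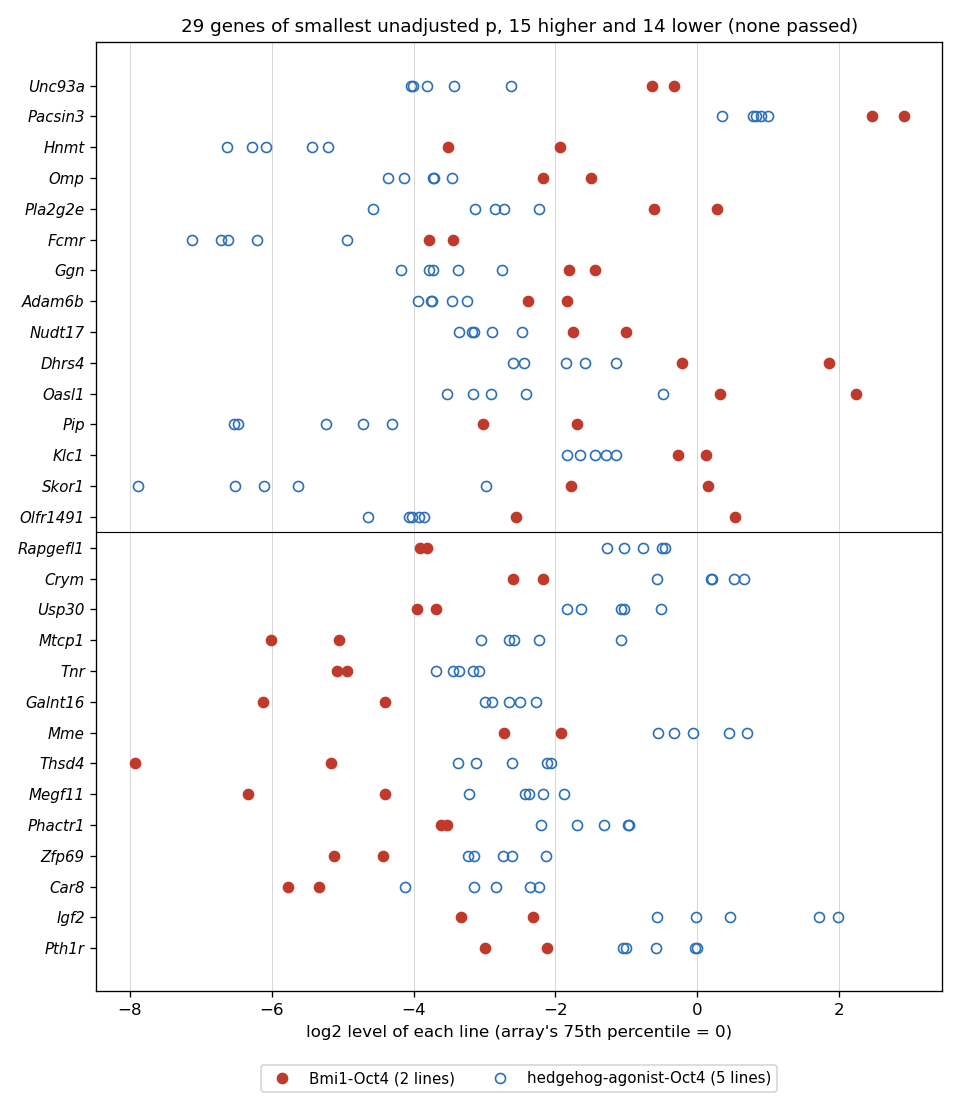
Log2 level of 29 of these genes (horizontal axis) in the 2 Bmi1-Oct4 lines (filled red) and the 5 hedgehog-agonist-Oct4 lines (open blue); the 15 genes higher in the Bmi1-Oct4 lines are above the line and 14 lower ones below it. The groups do not overlap in any of the 29, as the choice of genes requires, and Rapgefl1 lies at -3.92 and -3.81 in the Bmi1-Oct4 lines, against -1.27 to -0.46.

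The arrays outside the comparison were set against all 30 genes. ES lay on the Bmi1-Oct4 side of the midpoint between the group means for 10 of the 30 genes and MEF for 14, and both shared slide 1 with the Bmi1-Oct4 lines. The tail-tip lines, on slide 3, lay on that side for 8 and 13, and Bmi1 spheres for 18. Over all genes the share on that side was 48.0% for ES, 50.5% for MEF, 44.9% and 44.4% for the tail-tip lines and 50.8% for Bmi1 spheres. Among the genes whose groups did not overlap in either direction (7.55% of genes tested), ES was on the Bmi1-Oct4 side in 45.6%, MEF in 45.4%, the tail-tip lines in 35.2% and 33.9% and Bmi1 spheres in 50%. The tail-tip lines were made with oxysterol and shared slide 3 with 1 of the hedgehog-agonist lines.

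Each agonist was also set against the Bmi1-Oct4 lines on its own, by fitting 4 groups, which leaves 3 residual degrees of freedom. In these fits limma called 0 genes (0%). At an unadjusted p under 0.05 there were 1154 genes against the Shh-Oct4 line, 993 against the oxysterol-Oct4 lines and 618 against the purmorphamine-Oct4 lines. The smallest adjusted p was 0.231, 0.606 and 0.672 in that order. These comparisons share the Bmi1-Oct4 arrays, and the single Shh-Oct4 line was assumed to vary like the other groups. Rapgefl1 differed by -2.59 against Shh-Oct4, -3.11 against oxysterol-Oct4 and -3.23 against purmorphamine-Oct4, so no one agonist carried it. Unc93a differed by 3.55, 2.74 and 3.23 in the same order. Dmrt1, a transcription factor of the germ line, differed by -6.39, -5.54 and -1.33.

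The locus that Bmi1 is best known to silence had groups that did not overlap but did not pass the test. Cdkn2a was -6.25 and -5.20 in the Bmi1-Oct4 lines, against -2.31 in the Shh-Oct4 line, -1.46 and -2.05 in the oxysterol-Oct4 lines and -4.66 and -0.95 in the purmorphamine-Oct4 lines. Purmorphamine-Oct4 line 1 lay next to the Bmi1-Oct4 lines. The difference was -3.44 ± 0.95 (SE; limma, adjusted p = 1; 95% interval -5.66 to -1.21), and it was -2.29 with normexp background correction and -2.002 when signals were raised to the highest floor of the 7 arrays, a setting chosen after seeing the data. The probe lies at chr4:88678367-88678426 (mm7), and Ink4a and Arf were not told apart here. Cdkn2a was -9.10 in Bmi1 spheres, -3.12 in ES and 0.33 in MEF. Cdkn2b, the neighbouring inhibitor Ink4b, was -1.15 and -3.20 in the Bmi1-Oct4 lines, against -3.19 to 1.06, and the groups overlapped.

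Of the 24 genes tested in the list of Ink4 genes, Arf and p53 targets, 1 lay above (3.88% over all genes) and 2 below (3.66% over all genes) without overlap, with a median difference of -0.20. The one above was Cdkn2c, the inhibitor Ink4c, at 2.02 and 1.84 in the Bmi1-Oct4 lines, against -0.52 to 1.03. Its other probe, whose position overlaps the first, gave -0.03. Btg2, an antiproliferative p53 target, was below on each of its 3 probes, by -0.95, -1.96 and -2.05. Cdkn1a, the best known p53 target, differed by -0.23 and Trp53 itself by 0.06, both with overlapping groups.

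Among 19 PRC1 components tested, the median difference was 0.10, and it was -0.10 without Bmi1-Oct4 line 2. Only Ring1, the ubiquitin ligase subunit, had groups that did not overlap, where 7.55% of all genes did. It was -0.41 and -0.82 in the Bmi1-Oct4 lines, against -3.30 in the Shh-Oct4 line, -1.81 and -0.88 in the oxysterol-Oct4 lines and -2.45 and -3.18 in the purmorphamine-Oct4 lines. Oxysterol-Oct4 line 2 was within 0.1 of the nearer Bmi1-Oct4 line. The difference was 1.71 ± 0.68 (SE; limma, adjusted p = 1), and its other probe gave 1.33. Pcgf2 (Mel18), the paralogue of Bmi1, was -2.55 and -3.19 in the Bmi1-Oct4 lines, against -2.80 to 1.60. Of 11 PRC2 components tested, which include the methyltransferase that marks Polycomb targets, 2 were higher and the median difference was -0.19. Its core enzyme Ezh2 differed by -0.05, and Ezh1, the paralogue of that enzyme, was the one member without overlap, at -0.95. It was well above background in only 2 of 5 hedgehog-agonist lines, and the groups nearly met, at -5.01 in Bmi1-Oct4 line 2 and -4.94 in oxysterol-Oct4 line 1.

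The readouts of hedgehog signalling did not separate the groups. Gli1 was -1.66 and -3.27 in the Bmi1-Oct4 lines, against -2.87 in the Shh-Oct4 line, -3.87 and -2.80 in the oxysterol-Oct4 lines and -3.61 and -3.94 in the purmorphamine-Oct4 lines (difference 0.95 ± 0.56 SE, adjusted p = 1; 95% interval -0.36 to 2.26). Ptch1, receptor and target, was -1.81 and -1.62 in the Bmi1-Oct4 lines, against -3.31 to -1.23 (difference 0.66, 95% interval -0.79 to 2.09), and its other, dimmer probe gave -0.08 and overlapped too. Gli1 differed by 0.40, 0.87 and 1.31 against Shh-Oct4, oxysterol-Oct4 and purmorphamine-Oct4. Hhip, a decoy receptor and target, and the ligand Shh did not pass the filter. Neither was well above background in any hedgehog-agonist line, and 1 Hhip probe was so in Bmi1-Oct4 line 2, alone among the 7 lines.

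Of 27 hedgehog pathway genes tested, 17 were higher in the Bmi1-Oct4 lines and the median difference was 0.08. Of all genes tested, 7.55% had groups that did not overlap. Scube1, a secreted relative of the Scube protein that helps release hedgehog ligand, was the one member without overlap, at -2.49 and -0.78 in the Bmi1-Oct4 lines, against -4.19 to -3.02 (difference 1.90 ± 0.56 SE, adjusted p = 1). The transducer Smo (0.08) and the repressor Gli3 (0.01) were close to 0, with overlapping groups. Oxysterols also activate the nuclear receptor LXR. Its target Abca1, a cholesterol exporter, was -1.12 and -0.74 in the Bmi1-Oct4 lines, against -4.19 and -0.89 in the oxysterol-Oct4 lines and -1.29 to 0.02 in the other hedgehog-agonist lines. Over 17 LXR-related genes tested the median difference was 0.18, and the one member without overlap was Lpl, lipoprotein lipase, at 1.08 and 0.96 in the Bmi1-Oct4 lines, against 1.12 to 2.64. The other Lpl probe overlapped.

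Of the listed imprinted genes whose groups did not overlap, Igf2, a growth factor expressed from the paternal allele, had the largest difference. It was -2.32 and -3.33 in the Bmi1-Oct4 lines, against 0.46 in the Shh-Oct4 line, 1.72 and -0.02 in the oxysterol-Oct4 lines and -0.57 and 1.99 in the purmorphamine-Oct4 lines. The difference was -3.54 ± 0.77 (SE; limma, adjusted p = 1), it was -3.18 on the second probe, and it ran between -4.04 and -3.04 over the settings tried. The probes lie at chr7:139078075-139078135 and chr7:139078490-139078549 (mm7). ES had -1.28, MEF 3.89, Bmi1 spheres -8.19 and the tail-tip lines -1.62 and 2.79. H19, the neighbouring non-coding RNA of the maternal allele, overlapped, with -2.60 and -0.61 in the Bmi1-Oct4 lines, against 3.18 in oxysterol-Oct4 line 1, 3.31 in purmorphamine-Oct4 line 2 and -1.42 to -0.56 in the other hedgehog-agonist lines.

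The lines with the highest Igf2 and H19 were also those with the highest fibroblast markers. The summed linear level of 11 fibroblast markers was 9.60 and 8.68 in the Bmi1-Oct4 lines, against 17.3 in oxysterol-Oct4 line 1, 34.2 in purmorphamine-Oct4 line 2 and 6.18 to 7.72 in the other hedgehog-agonist lines, with 143 in MEF. Of these markers 8 or 9 were well above background in the Bmi1-Oct4 lines and 6 to 9 in the hedgehog-agonist lines, and Postn and Fap were so in none of the 7. In the other hedgehog-agonist lines Igf2 was -0.57 to 0.46. The part of fibroblast RNA in the result was not tested; in such bulk RNA, fewer cells of a type and less RNA per cell cannot be told apart.

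Over the 26 imprinted genes tested outside the Dlk1-Dio3 cluster, Igf2 included, 7 were higher in the Bmi1-Oct4 lines, 1 lay above and 3 below without overlap (7.55% of all genes either way), and the median difference was -0.23. Grb10, a growth-inhibiting adaptor, was 3.70 and 3.12 in the Bmi1-Oct4 lines, against 3.94 to 4.77, a difference of -0.85, with overlap on its other probes. Ascl2, a trophoblast factor, differed by -0.61. Nnat, a paternally expressed gene, was well above background in neither Bmi1-Oct4 line and in 4 of 5 hedgehog-agonist lines. It was -9.35 and -6.91 in the Bmi1-Oct4 lines, against 1.31 in oxysterol-Oct4 line 1, -0.42 in purmorphamine-Oct4 line 2 and -7.04 to -3.33 in the others, and the groups overlapped.

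In the imprinted Dlk1-Dio3 cluster, Dlk1 was the one of 5 genes without overlap, against 7.55% of all genes. Dlk1, the paternally expressed ligand, was -3.40 and -3.12 in the Bmi1-Oct4 lines, against -1.36 in the Shh-Oct4 line, -1.98 and -0.49 in the oxysterol-Oct4 lines and -2.72 and -1.66 in the purmorphamine-Oct4 lines (difference -1.61 ± 0.58 SE, adjusted p = 1). The groups did not overlap, and ES had -3.05. Meg3, a maternally expressed non-coding RNA whose loss has been linked to reduced developmental potential of mouse iPS cells, was 2.23 and -6.12 in the Bmi1-Oct4 lines, against -4.51 in purmorphamine-Oct4 line 1 and 2.61 to 3.41 in the other hedgehog-agonist lines. It was therefore low in 1 line of each group, and in Rian it was the same lines that were lowest, at -4.48 in Bmi1-Oct4 line 2 and -5.88 in purmorphamine-Oct4 line 1. The median over the 5 genes was -1.94, and it was 0.16 without Bmi1-Oct4 line 2.

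**Figure D3:**
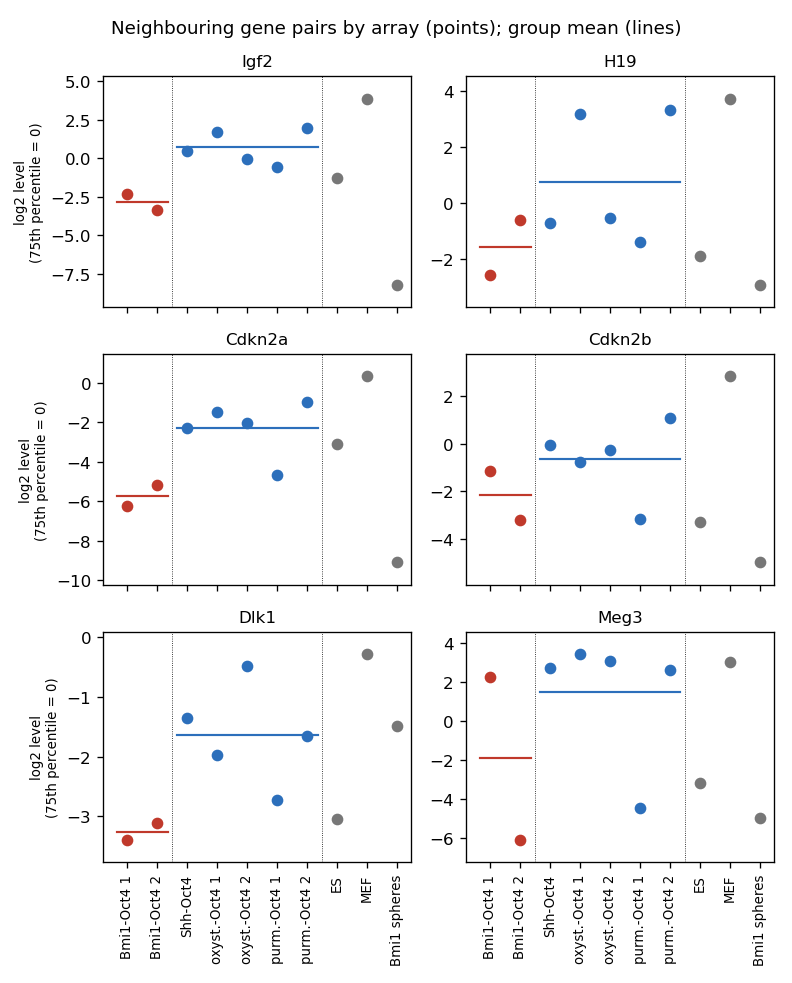
Log2 level of 3 pairs of genes that lie near each other in the genome (vertical axes) by array (horizontal axis): the Bmi1-Oct4 lines in red, the hedgehog-agonist-Oct4 lines in blue, others in grey, and group means as lines. Igf2, Cdkn2a and Dlk1 are below all blue points in both red lines, while H19, Cdkn2b and Meg3 overlap.

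Interferon-stimulated genes, which cells switch on in answer to virus or interferon, had the highest median difference of the 28 lists, with 1 Bmi1-Oct4 line high. Of 30 tested, 25 were higher in the Bmi1-Oct4 lines with a median difference of 0.97, against 9932 of 20183 genes higher and a median of -0.01 overall. Without Bmi1-Oct4 line 1 the median was -0.175, and without line 2 it was 1.92. Relative to the mean of the 7 lines, the list's median stood at 1.69 in Bmi1-Oct4 line 1 and -0.29 in line 2, against 1.29 in purmorphamine-Oct4 line 2, 0.08 in oxysterol-Oct4 line 1 and -1.18 to -0.56 in the other hedgehog-agonist lines. The list was thus high in 1 line of each group. In MEF it stood at 2.88 and in ES at -0.88, and purmorphamine-Oct4 line 2 also had the highest sum of fibroblast markers among the 7 lines. Fibroblast and mesenchymal genes were in part higher in Bmi1-Oct4 line 1 than in line 2. The sum of the 11 fibroblast markers was 9.60 in line 1 and 8.68 in line 2, but their median log2 level was -1.02 in line 1 and -3.35 in line 2, against 0.29 in purmorphamine-Oct4 line 2, -0.50 in oxysterol-Oct4 line 1 and -4.34 to -2.76 in the other hedgehog-agonist lines. Prrx1, a homeobox factor of mesenchyme among these markers, was 1.43 in Bmi1-Oct4 line 1 and -3.35 in line 2, with 1.91 in purmorphamine-Oct4 line 2. The 15 mesenchymal regulators had a median of 0.65 in Bmi1-Oct4 line 1 and -0.12 in line 2 relative to the 7 lines, with 0.80 in purmorphamine-Oct4 line 2. The part of fibroblast RNA in the interferon values was not tested.

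Within the Bmi1-Oct4 group, 19 of the 30 genes were at least 2-fold higher in line 1 and 2 were at least 2-fold higher in line 2, against 2409 and 2994 of all genes. Ifit1, which binds viral RNA, was 2.89 and -2.06 in the Bmi1-Oct4 lines, against 2.66 in purmorphamine-Oct4 line 2, -0.61 in oxysterol-Oct4 line 1 and -7.84 to -4.08 in the other hedgehog-agonist lines. Rsad2, the antiviral enzyme viperin, was 2.00 and -5.01, against 1.15, -2.11 and -6.24 to -4.06 in the same order of lines. Isg15, the ubiquitin-like modifier, varied less, with 2.73 and 2.39 in the Bmi1-Oct4 lines, against 1.95 to 2.98.

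Oasl1, an oligoadenylate synthetase-like regulator of the interferon response, was the one member without overlap, against 7.55% of all genes. It was 2.24 and 0.32 in the Bmi1-Oct4 lines, against -3.52 in the Shh-Oct4 line, -2.90 and -3.16 in the oxysterol-Oct4 lines and -2.42 and -0.48 in the purmorphamine-Oct4 lines (difference 3.78 ± 0.89 SE, limma adjusted p = 1). As for the list's median, Bmi1-Oct4 line 1 was highest and purmorphamine-Oct4 line 2 was highest among the hedgehog-agonist lines.

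**Figure D4:**
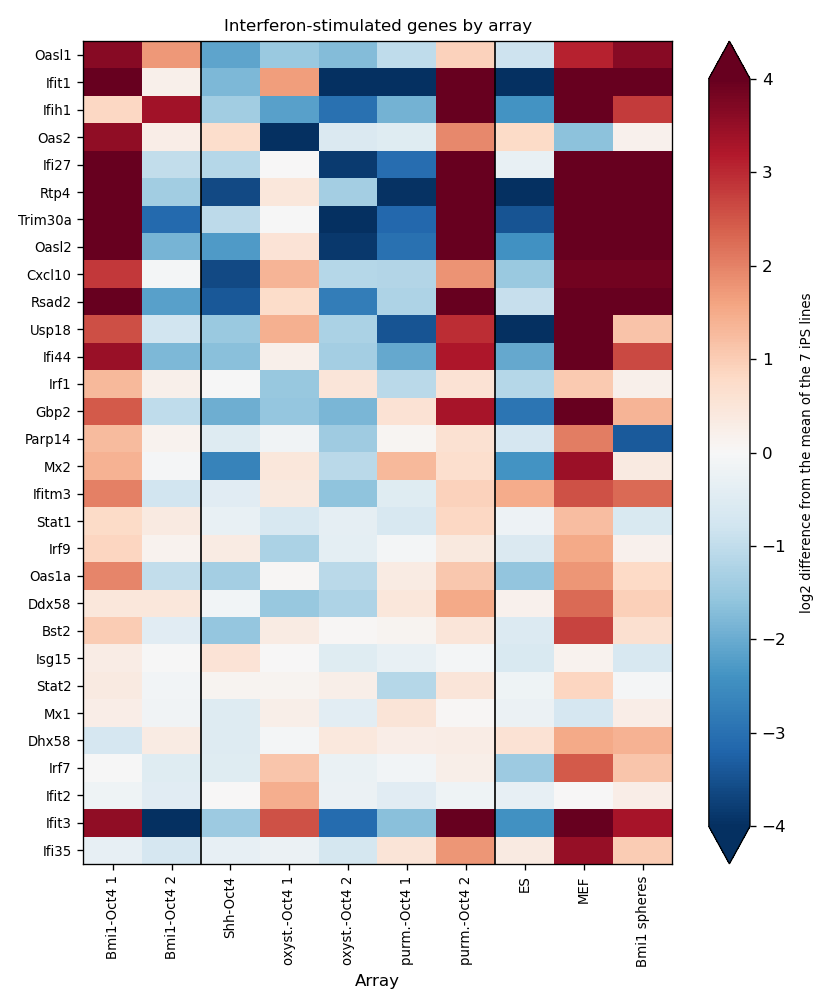
Difference of 30 interferon-stimulated genes (rows, ordered by the group difference) from the mean of the 7 iPS lines, on the log2 scale (colour, red higher and blue lower, cut at 4), on 10 arrays (columns); black lines part the Bmi1-Oct4 lines, the hedgehog-agonist-Oct4 lines and the other arrays. The list is red in Bmi1-Oct4 line 1 (median 1.69) and purmorphamine-Oct4 line 2 (median 1.29), and not in Bmi1-Oct4 line 2 (median -0.29).

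The promoters of these genes were searched for the interferon-stimulated response element, written here as GAAANNGAAA on either strand (TTTCNNTTTC on the other). The window ran from 250 bases before to 50 after the start site (RefSeq, GRCm38.p6). Of 21 list genes with a window, 13 held the motif (61.9%), against 1079 of 27025 genes (3.99%). The list was chosen as genes that answer interferon, so this share does not bear on the differences between the lines. A match is a description of letters and not a site. The 250 bases before the start site are printed for a pair of genes that were high in Bmi1-Oct4 line 1 and low in line 2 (Ifit1, Rsad2), for Isg15, which was not, and for Oasl1, the member without overlap; capitals mark the motif, and overlapping matches run together. They lie at chr19:34640639-34640888 (plus strand), chr12:26456453-26456702 (minus strand), chr4:156200819-156201068 (minus strand) and chr5:114922990-114923239 (plus strand).
Ifit1: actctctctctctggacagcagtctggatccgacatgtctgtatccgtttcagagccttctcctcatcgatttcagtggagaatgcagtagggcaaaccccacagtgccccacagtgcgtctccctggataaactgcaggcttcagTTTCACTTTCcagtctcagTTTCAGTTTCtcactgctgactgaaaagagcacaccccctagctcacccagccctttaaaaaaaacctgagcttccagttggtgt
Rsad2: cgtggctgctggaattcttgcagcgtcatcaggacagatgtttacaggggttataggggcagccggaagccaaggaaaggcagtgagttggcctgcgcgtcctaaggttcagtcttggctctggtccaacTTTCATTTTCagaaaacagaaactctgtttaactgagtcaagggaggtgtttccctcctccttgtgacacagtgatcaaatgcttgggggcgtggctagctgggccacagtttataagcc
Isg15: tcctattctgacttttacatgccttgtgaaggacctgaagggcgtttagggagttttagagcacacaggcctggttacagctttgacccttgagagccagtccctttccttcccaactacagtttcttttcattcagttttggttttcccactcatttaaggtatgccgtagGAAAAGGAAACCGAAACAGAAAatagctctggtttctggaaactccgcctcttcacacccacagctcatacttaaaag
Oasl1: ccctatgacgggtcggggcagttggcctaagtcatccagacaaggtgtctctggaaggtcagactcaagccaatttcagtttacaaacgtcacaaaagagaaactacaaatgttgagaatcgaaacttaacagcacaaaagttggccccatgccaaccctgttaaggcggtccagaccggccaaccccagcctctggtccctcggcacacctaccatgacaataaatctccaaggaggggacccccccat

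The motif was in the windows of Ifit1, Rsad2 and Isg15 alike, and those letters were not in the window of Oasl1, the member with the largest difference. Isg15, with 3 overlapping matches, was among the members that varied least between the lines.

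The other lists had medians closer to 0 than these. The mesenchymal regulators had a median difference of 0.26, which was -0.046 without Bmi1-Oct4 line 1, and Prrx2, a homeobox factor of mesenchyme, was 0.08 and 0.27 in the Bmi1-Oct4 lines, against -1.47 to -0.10. MHC class I and antigen processing genes had a median of 0.30, which was -0.06 without Bmi1-Oct4 line 1 and 0.85 without line 2. In that list the class I gene H2-Q1 was 2.15 and 2.38 in the Bmi1-Oct4 lines, against -0.97 to 2.03, but its other probes overlapped and gave 0.47 and 0.05; class I genes are near-identical and probes can be shared. The fibroblast and matrix list had a median of -0.12. In it Ccn2, a matricellular target of YAP, was 0.48 and 0.19 in the Bmi1-Oct4 lines, against 0.69 to 2.15, and Col1a1 differed by 0.88 with overlap on its other probes.

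Among 22 epithelial genes tested, the adhesion molecule Cdh1 was 1.86 and 2.01 in the Bmi1-Oct4 lines, against 2.45 to 3.17, a difference of -0.84, and the list's median was -0.24. Hes1, a Notch target and the neural stem member with the largest difference among those without overlap, was -6.92 and -4.64, against -4.40 to -3.61. Its difference was -1.85, but -0.87 with normexp background correction. The neural stem list as a whole had a median of 0.06, with 28 genes tested, and the 19 primitive endoderm genes had one of 0.04. Of 26 cholesterol synthesis genes tested, 8 were higher in the Bmi1-Oct4 lines and the median was -0.19. Of these genes, 0 lay above and 3 below without overlap (7.55% of all genes either way). Hsd17b7 was below on both of its probes, by -0.484 and -1.259. Fdps, a synthase of the pathway, was -0.31 and -0.08 in the Bmi1-Oct4 lines, against 0.20 to 2.37, while its other probe gave 1.28 in the opposite direction.

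Germline and 2-cell stage genes had a median of -0.52, with 4 of 22 genes higher in the Bmi1-Oct4 lines, and a median of 0.07 without Bmi1-Oct4 line 1. Dmrt1 was -5.19 and -5.43 in the Bmi1-Oct4 lines, against 1.08 in the Shh-Oct4 line, 1.37 and -0.92 in the oxysterol-Oct4 lines and -3.31 and -4.65 in the purmorphamine-Oct4 lines (difference -4.03 ± 1.66 SE, adjusted p = 1). Purmorphamine-Oct4 line 2 was within 1 log2 unit of the Bmi1-Oct4 lines. Among 20 glycolysis genes, 2 lay above and 1 below without overlap (7.55% of all genes either way), with a list median of -0.17. The muscle enolase Eno3, 1 of those above, was 0.87 and 1.56 in the Bmi1-Oct4 lines, against -3.15 to 0.05. Pkm was the member below, by -0.745, and its other probe gave -0.532 without overlap. Mitosis and replication genes had a median of 0.08 over 32 genes, and control genes one of -0.10 over 17. The medians were 0.59 for X-inactivation and Y-linked genes, 0.30 for endothelium and 0.17 for blood and immune genes. They were -0.41 for trophectoderm, -0.24 for primed epiblast and mesoderm and -0.22 for neurons and glia, with at most 1 gene without overlap in each of these 6 lists, near the 7.55% of all genes.

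**Figure D5:**
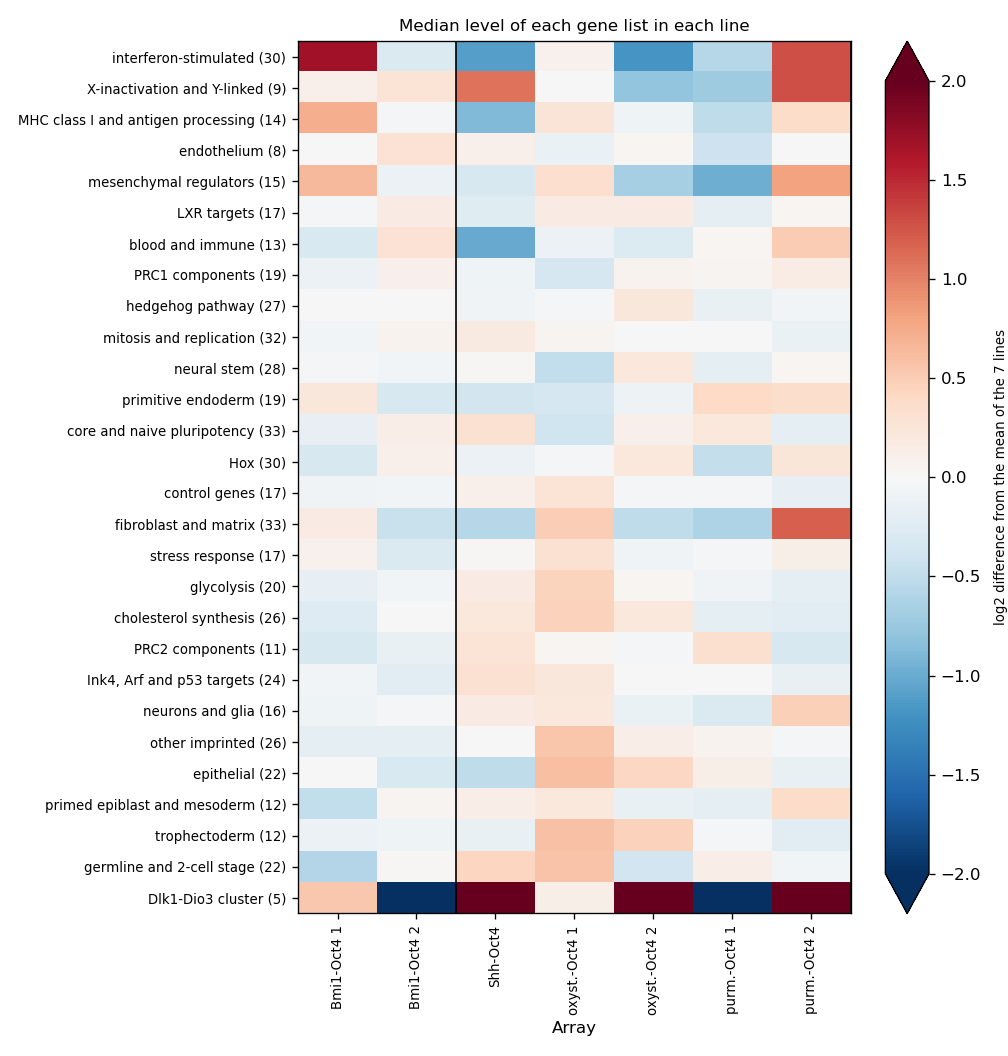
Median over the tested members (number in brackets) of each gene list's log2 difference from the mean of the 7 lines (colour, red higher and blue lower, cut at 2) in each line (columns; the Bmi1-Oct4 lines left of the black line), with lists ordered by the group difference. The lists at the top and the bottom, interferon-stimulated (0.97) and Dlk1-Dio3 cluster (-1.94), each differ between the Bmi1-Oct4 lines themselves.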

How the data were processed

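Per the file headers, the deposited intensity values are one-colour processed signals, background-subtracted and not scaled between arrays. The scans had 5 microns per pixel and were read with Agilent's Feature Extraction software, version 9.5.3.1; later steps by the authors were not used here. Outlier spots were left out, spots of a probe averaged as log2, and the array's 75th percentile over gene spots subtracted. Genes needed a probe well above background on at least 6 of the 12 arrays; each was represented by its probe of highest mean signal, and 6408 genes had several. This left 20183 genes, 135 of them with a missing value on an outlier spot, which the fit dropped. Names came from a RefSeq table by accession, symbol or synonym, and for 8458 probes the deposited name was kept. Probe positions are in mm7.

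The groups were compared with limma 3.58.1 in R 4.3.3 (5 residual degrees of freedom, Benjamini-Hochberg adjustment over all genes, two-sided); list members were counted, with no list test. The fit was tested on simulated data. Clone numbers did not pair the lines: deviations of same-numbered lines correlated at 0.104, -0.165 and -0.166. The lines, the 28 lists (545 genes tested) and the tests were chosen with earlier results of these data known. Named were Bmi1, Pou5f1, Sox2, Nanog, Gli1, Ptch1, Hhip, Cdkn2a and Abca1; the 15 genes each way of smallest p among those at least 2-fold apart, without overlap, with a proper symbol, and above background throughout the higher group; and up to 3 members of each list lying furthest apart without overlap. Other genes were named after their values were seen, and 2 genes that the rule takes are not reported here. The precision is limited by the number of arrays. Alternatives changed background correction, scaling, filter, probe choice, variance model, slide and clone blocks, the samples in the fit and a 3-fold threshold.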

Additional observations from a re-analysis of the deposited data

Results flagged for a closer look

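Among 72 named genes, 2 had a hedgehog-agonist line far from the other hedgehog-agonist lines, where chance alone flags about 1 in 20 groups. Olfr1491 was -4.64 in oxysterol-Oct4 line 1, below the -4.07 of the nearest line. Hsd17b7, a cholesterol synthesis enzyme, was 2.03 in the Shh-Oct4 line, above the 1.21 of the nearest line. Its other probe did not show this gap, with 2.33 in the Shh-Oct4 line and 2.09 in oxysterol-Oct4 line 1.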

How the results depend on the processing

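The count of genes called was 0 under all settings but 3: quantile normalization called 1 gene (AW986112, 4.89, limma adjusted p = 0.0283), the mean of all probes of a gene called 2 (Acat3, 4.28, adjusted p = 0.025, and Sel1l3, -5.24, adjusted p = 0.0419), and slide as a random block called 1 (Sel1l3, -5.19, adjusted p = 0.0394), with a block correlation of -0.125. AW986112 was dim in all hedgehog-agonist lines and Sel1l3 in both Bmi1-Oct4 lines; the brightest Acat3 probe, saturated on both Bmi1-Oct4 arrays, gave 0.08. No member of a list was called under any setting. Leaving out 1 line at a time called 0 genes each time, with 626 to 846 at an unadjusted p under 0.05, and the clone number as a replicate block called 0, with 697. Genes at an unadjusted p under 0.05 numbered 719, but 1176 with the slide block and 2413 with a filter of 1 array. The share of them that was higher was 49.2%, against 38.8% with normexp and 18.8% with that filter. Among single genes, the directions that turned were of genes that had not passed. Bmi1 gave -0.046 with normexp, -0.092 in the 8-group and 4-group models and -0.402 to 0.463 with a line left out. Sox2 gave -0.011 with the slide block, -0.077 with slide 2 alone and -0.103 to 0.156 with a line left out. Rpl13a gave 0.009 with normexp and Fdps 0.084 with all probes averaged. With a line left out, Abca1 ran between -0.186 and 0.867 and Nanog between -0.108 and 0.263; both turned without oxysterol-Oct4 line 1. Of the 28 list medians, 13 did not turn in any setting and 14 turned in at least 1 fit with a line left out. Other settings turned 7, each within 0.174 of 0 as reported: blood and immune ran down to -0.194, primitive endoderm to -0.227, neural stem to -0.071, core and naive pluripotency to -0.033 and mitosis and replication to -0.010, while glycolysis ran up to 0.021 and Hox to 0.009. Dim genes in the hedgehog-agonist lines are limited by the array floors.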

Other observations

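The Bmi1-Oct4 lines differed from each other in genes of the 2-cell stage, which fluctuate between states in mouse ES cell cultures. Zscan4c was 0.24 in line 1 and 4.18 in line 2, with 1.76 to 4.67 in the hedgehog-agonist lines. Tcstv1 was -2.09 and 2.46, and Tcstv3 -2.41 and 1.61, in the same order of lines. These genes have near-identical copies that a probe may share. In the germline and 2-cell stage list, 9 of 21 genes with values were at least 2-fold higher in line 2 and 3 in line 1, against 2994 and 2409 of all genes. Of the 33 core and naive pluripotency genes, 4 were at least 2-fold higher in line 2 and 0 in line 1, against 2994 and 2409 of 20183 genes. The share higher in line 2 was thus no larger than over all genes.

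Fos, an immediate early gene, was -3.71 and -2.58 in the Bmi1-Oct4 lines, against -2.24 to -0.06 in the hedgehog-agonist lines, and Dusp1, which switches off MAP kinases, was 2.01 and 2.61, against 2.84 to 3.66. They were the 2 members without overlap among 17 stress response genes tested, where 7.55% of all genes had groups apart. Of the 17 genes, 6 were higher in the Bmi1-Oct4 lines and the median difference was -0.17. Neither Fos nor Dusp1 passed. Egr1 (-1.20) and Atf3 (-1.58) had differences of the same sign with overlap, while Jun differed by 0.04. Among 30 Hox genes tested, 15 were higher in the Bmi1-Oct4 lines, and 1 lay above and 3 below without overlap. Hoxb9, 1 of those below, was -1.35 and -0.25 in the Bmi1-Oct4 lines, against 0.15 to 1.16, and its other probe overlapped.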
